A study of Mus musculus with 8 samples.

Results

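The genes that encode the proteins of the cytosolic ribosome were followed in brown adipose tissue (BAT), the thermogenic fat depot, of WT and Cd36KO mice. Members were all rows of the count table whose mouse symbol names a ribosomal protein of the small subunit (Rps, with Rpsa) or of the large subunit (Rpl, with Rplp0, Rplp1 and Rplp2), without pseudogenes, predicted Gm genes and the Rps6k kinases. This rule found 83 of the 31053 genes in the table, on 19 chromosomes, of which 31 belong to the small subunit, 46 to the large subunit and 6 are paralogs of a core gene (Rpl3l, Rpl10l, Rpl22l1, Rpl39l, Rpl7l1 and Rps27l). A count was present for 82 members, and 80 received an adjusted p-value. Rpl10l was at 0 in all 8 libraries, and Rps6 and Rpl39l fell below the level at which the test adjusted p-values.

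Both groups were C57BL6/J mice labelled as 8 weeks old, with 4 libraries labelled WT and 4 labelled Cd36KO. The labels give no more of the genotype. The study attributes its BAT transcriptome to CD36 flox/flox mice carrying Csf1r Cre, in which recombination is restricted to cells that use the Csf1r promoter, chiefly macrophages and other myeloid cells, and it also describes mice lacking CD36 in all cells. The labels name the stromal vascular fraction as the cell type, but the adipocyte gene Adipoq (2458 to 6294 normalized counts) and the thermogenic gene Ucp1 (4235 to 12312) were abundant in all 8 libraries, and both are genes of mature adipocytes. The study's methods give a later age at sacrifice. In the deposited counts, 1 Cd36KO library has no number in its name and is called the unnumbered library.

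Cd36 itself, the lipid and vesicle receptor after which the groups are named, had 2796, 2958, 3505 and 2412 normalized counts in WT and 1926 in the unnumbered, 2109, 2384 and 1930 in the other Cd36KO libraries. The groups did not overlap, and the log2 fold change was -0.48 ± 0.16 (SE; DESeq2 adjusted p = 0.0602, exact two-sided permutation p = 0.0286, the smallest that 4 against 4 libraries allow).

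A ribosome is assembled from ribosomal RNA and a fixed set of proteins, nearly all of which are present in a single copy per particle, so cells make these proteins in matched amounts. Their messenger RNAs are short, abundant and stable, and most begin with a run of pyrimidines, the 5′ terminal oligopyrimidine (TOP) tract, through which mTOR and LARP1 set their translation. Much of the control of these genes is therefore exerted on translation, which messenger RNA counts do not show. In bulk tissue, fewer cells of a type and less RNA per cell cannot be told apart.

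Total counts ranged from 2679785 to 4097953 per library, and genes of the mitochondrial genome took 23.4% to 32.1% of them. Members held 3.53%, 3.75%, 3.73% and 4.26% of the counts outside the mitochondrial genome in WT and 4.29% (unnumbered), 4.59%, 4.52% and 4.00% in Cd36KO. The WT mean was 3.82% ± 0.313 and the Cd36KO mean 4.35% ± 0.267 (SD over 4 libraries each). WT replicate 4 lay inside the Cd36KO range, so the groups overlapped. The 95% Wilson interval of each share spanned at most 0.0606 percentage points and covers counting error only.

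Libraries that stood apart came from both groups. Among the 77 members with a mean of at least 50 normalized counts (counts divided by the size factor of the library), WT replicate 4 had the highest value of the 8 libraries for 38 members. The unnumbered Cd36KO library was highest for 18 members and lowest for 20. WT replicate 1, which also had the highest skeletal muscle score, was lowest for 28 members.

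With all 8 libraries, Rpl36, Rpl7 and Rpl13 were higher and Rps2 was lower in Cd36KO than in WT. These 4 calls are 5.0% of the 80 members tested, beside 2.95% of all 9617 genes tested (DESeq2, adjusted p under 0.05). The 3 higher members are 3.75% of those tested, beside 1.42% of all genes, and the lower member is 1.25%, beside 1.53%. An unadjusted p under 0.05 was found for 19 members, 15 of them higher and 4 lower, which is 23.8% of the tested members beside 15.6% of all genes. The edgeR quasi-likelihood test and limma on the deposited log2 values called no member, with 12 and 14 members at an unadjusted p under 0.05. Over all genes, edgeR called 14 and limma 0 of 9793, and 16.1% and 15.7% had an unadjusted p under 0.05.

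Rpl36, a large subunit protein (chr17:56613416-56614243 in GRCm38), had 696, 723, 596 and 918 normalized counts in WT replicates 1 to 4. It had 1229 in the unnumbered Cd36KO library and 1199, 1145 and 973 in Cd36KO replicates 2, 3 and 4. The lowest Cd36KO library, replicate 4, was just above the highest WT library, also replicate 4. The log2 fold change was 0.63 ± 0.17 (SE), or 1.55-fold (DESeq2 adjusted p = 0.0152).

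Rpl7, a large subunit protein that binds ribosomal RNA (chr1:16101295-16104662), had 1043, 1245, 1241 and 1210 normalized counts in WT and 1862 (unnumbered), 1421, 1642 and 1640 in Cd36KO. All Cd36KO libraries were above all WT libraries, and the WT libraries differed little from each other. The log2 fold change was 0.47 ± 0.14 (SE; DESeq2 adjusted p = 0.0337).

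Rpl13, another large subunit protein (chr8:123102350-123105244), had 1172, 1328, 1374 and 1244 normalized counts in WT and 1958 (unnumbered), 1502, 1830 and 1738 in Cd36KO. As for Rpl7, the groups were separate and the unnumbered library was the highest. The log2 fold change was 0.46 ± 0.14 (SE; DESeq2 adjusted p = 0.0352).

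Rps2, which lines the channel through which messenger RNA enters the small subunit (chr17:24718116-24721929), had 71.3, 138, 136 and 306 normalized counts in WT and 25.6 (unnumbered), 55.2, 72.6 and 93.8 in Cd36KO. The groups overlapped, since WT replicate 1 lay below Cd36KO replicates 3 and 4. The log2 fold change was -1.39 ± 0.42 (SE; DESeq2 adjusted p = 0.0386, exact two-sided permutation p = 0.0857). Without WT replicate 4 the log2 fold change was -0.89 and the call was lost.

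None of the 4 calls was made under every one of the 19 alternatives. Rpl36 and Rps2 passed under 10 each, and Rpl7 and Rpl13 under 6 each, with the same sign under all 19. Leaving out the unnumbered Cd36KO library, Cd36KO replicate 3, WT replicate 2 or WT replicate 3 left no member past the threshold. Leaving out WT replicate 4 gave 15 members, 14 higher and 1 lower (Rpl35), in a fit that called 498 of all 5719 genes tested. With all 8 libraries, 284 of all 9617 were called. With the muscle score as a covariate, the calls were Rps2 and Rpl35, both lower, beside 188 of all 6717 genes tested. The log2 fold changes of the other 3 were then 0.71 for Rpl36, 0.49 for Rpl7 and 0.46 for Rpl13, no smaller than without it, with DESeq2 adjusted p-values of 0.0590, 0.178 and 0.206.

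**Figure D1:**
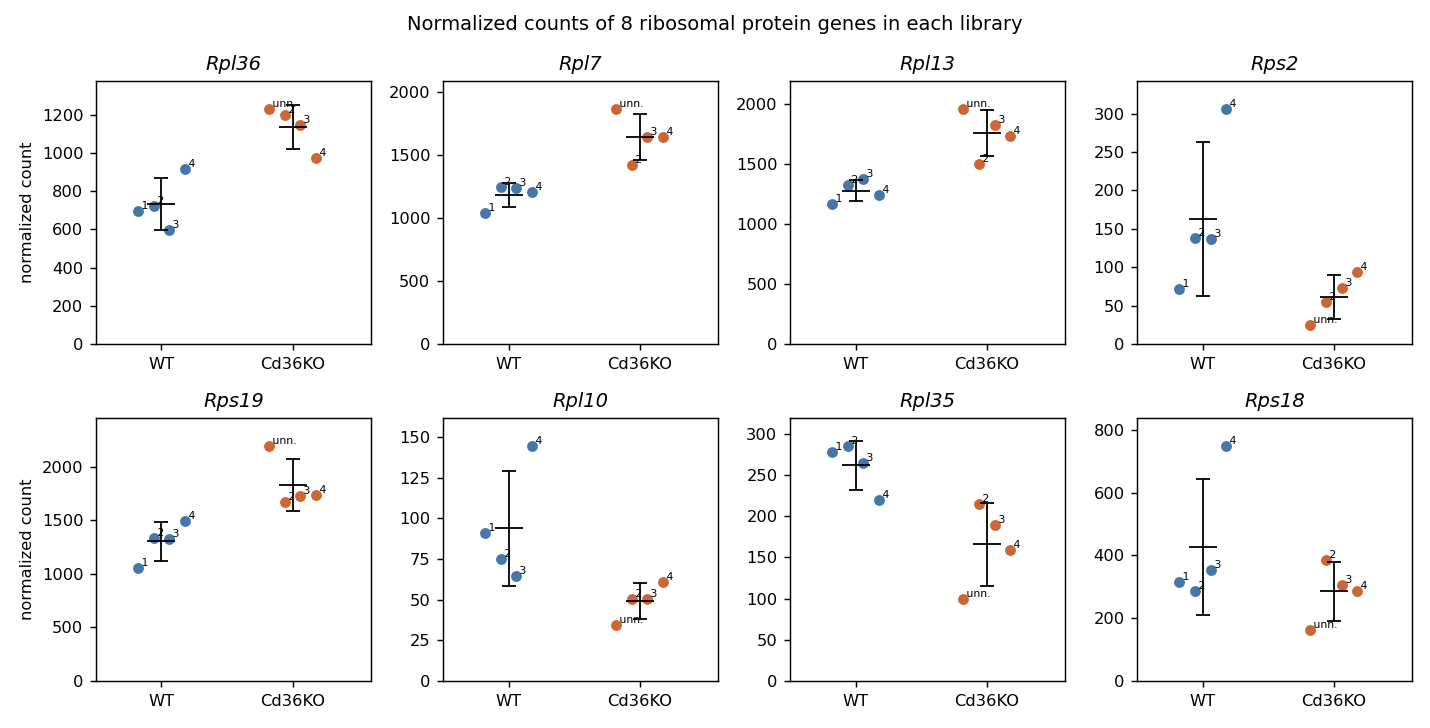
Normalized count (y axis, from 0) of 8 ribosomal protein genes in the 4 WT (blue) and 4 Cd36KO (orange) libraries, each point labelled with its replicate number ("unn." is the unnumbered library), with the group mean and SD as bars. Rpl36, Rpl7, Rpl13 and Rps19 were higher in every Cd36KO library than in every WT library, Rpl10 and Rpl35 were lower, and Rps2 and Rps18 overlapped, with WT replicate 4 the highest point of both.

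Members just short of the threshold moved in both directions. Rps19, a small subunit protein mutated in Diamond-Blackfan anaemia, had 1055, 1337, 1329 and 1496 normalized counts in WT and 2197 (unnumbered), 1672, 1725 and 1741 in Cd36KO. Rpl10, a large subunit protein that joins the particle late in its maturation, had 91.2, 74.7, 64.7 and 144 in WT and 34.5, 50.6, 50.1 and 61.0 in Cd36KO, in the same order of libraries. Rpl35, which lies near the mouth of the peptide exit tunnel, had 278, 285, 265 and 220 in WT and 99.2, 215, 189 and 159 in Cd36KO. In each of the 3 genes the groups did not overlap. The log2 fold changes were 0.49 ± 0.16, -0.93 ± 0.31 and -0.66 ± 0.23 (SE), with DESeq2 adjusted p-values of 0.0622, 0.0668 and 0.0974.

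Of the 77 members with at least 50 normalized counts, 10 had all Cd36KO values above all WT values (among them Rpl7, Rpl13, Rpl31, Rpl36, Rpl38, Rplp1, Rps13, Rps19 and Rps25) and 2 had them below (Rpl10 and Rpl35). The 10 are 13.0% of these members, beside 6.91% of the 5528 genes at that level, and for the lower direction the share over those genes was 3.96%. For each of the 12, the exact two-sided permutation p was 0.0286. Among the largest positive log2 fold changes at this level were those of Rpl36, Rps14 (0.53 ± 0.22, SE), Rps19 and Rpl31 (0.48 ± 0.19). The largest negative ones were those of Rps2, Rpl10, Rpl22l1 (-0.70 ± 0.39), Rpl35 and Rps18 (-0.58 ± 0.32), a small subunit protein of the head.

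Rps14 was led by the unnumbered library, with 3084, 3843, 4712 and 5383 normalized counts in WT and 8490 (unnumbered), 5388, 5606 and 5096 in Cd36KO. Rps18 was led by WT replicate 4, with 316, 288, 354 and 749 in WT and 162 (unnumbered), 387, 307 and 286 in Cd36KO. In both genes the groups overlapped. Without the unnumbered library the log2 fold change of Rps14 was 0.34 in place of 0.53, and without WT replicate 4 it was 0.66 (DESeq2 adjusted p = 0.0304). That of Rps18 was -0.16 without WT replicate 4 and -0.38 without the unnumbered library, in place of -0.58.

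Over the 80 members with at least 10 normalized counts, the median log2 fold change was 0.12 and the middle 50% lay between -0.12 and 0.24. Over all 9834 genes at that level the median was -0.01 and the middle 50% lay between -0.28 and 0.25. Of the members, 50 had a positive fold change, or 62.5%, beside 49.0% of all genes. The small subunit had 18 of 30 members positive with a median of 0.20, and the large subunit 30 of 46 with a median of 0.09. The mean log2 level of the small subunit genes exceeded that of the large subunit genes by 0.60 ± 0.11 in WT, beside 0.62 ± 0.08 in Cd36KO (SD over 4 libraries each), a difference between groups smaller than the spread in either.

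**Figure D2:**
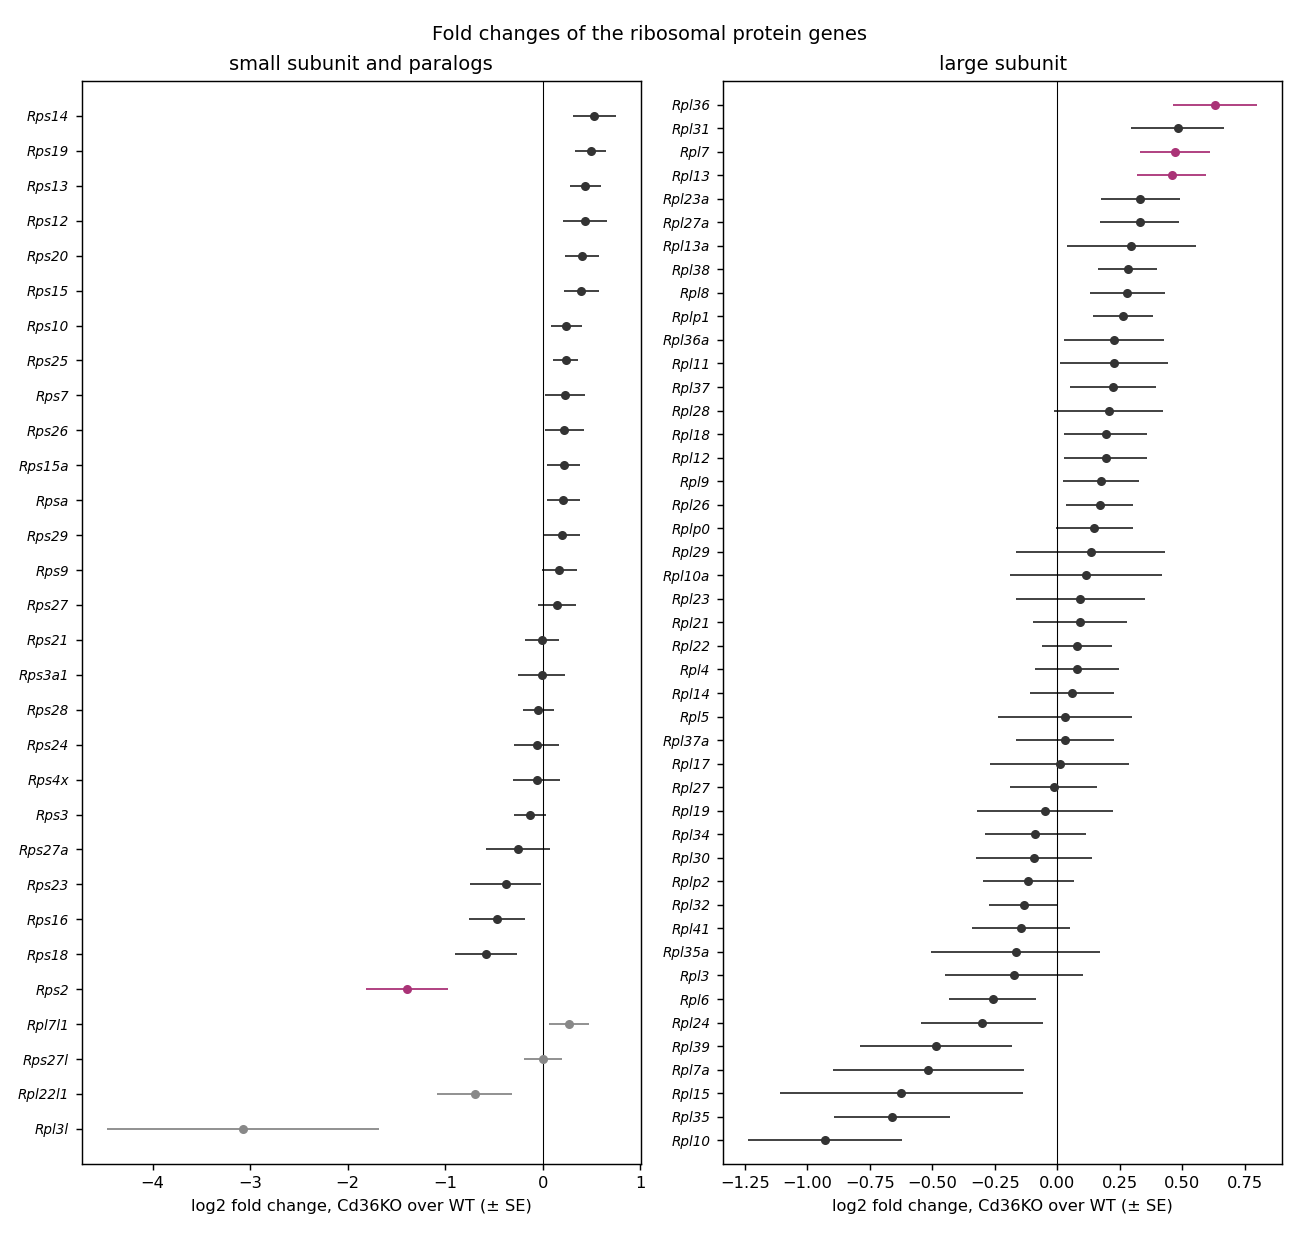
Log2 fold change of Cd36KO over WT with its standard error (x axis) for 75 of the 80 members with at least 10 normalized counts, with the small subunit and the paralogs (grey) on the left and the large subunit on the right, each sorted by value. Purple marks the 4 members past the threshold, 3 above 0 in the large subunit and Rps2 below 0, and the panels have different x axes because Rpl3l reaches -3.08.

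The direction of a member followed its level. Of the 34 members with a mean of 1000 normalized counts or more, 30 had a positive fold change. Of the 24 between 10 and 300, 7 did. Across the 80 members the Spearman correlation between fold change and mean normalized count was 0.66, given as a description because the members share the same 8 libraries. Across all 9834 genes it was 0.14. Leaving out each library in turn gave values between 0.55 (the unnumbered Cd36KO library, and likewise WT replicate 4) and 0.70.

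Step by step, the median log2 fold change was -0.62 for the 3 members with 10 to 50 normalized counts, -0.17 for the 5 with 50 to 100 and -0.21 for the 16 with 100 to 300. It was 0.08 for the 22 with 300 to 1000, 0.23 for the 29 with 1000 to 3000 and 0.26 for the 5 above. Over all genes in the same steps it went from -0.07, -0.02 and 0.03 to 0.07, 0.22 and 0.28. The abundant members thus had medians near those of other abundant genes, and the members below 300 had lower medians than other genes of their level.

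**Figure D3:**
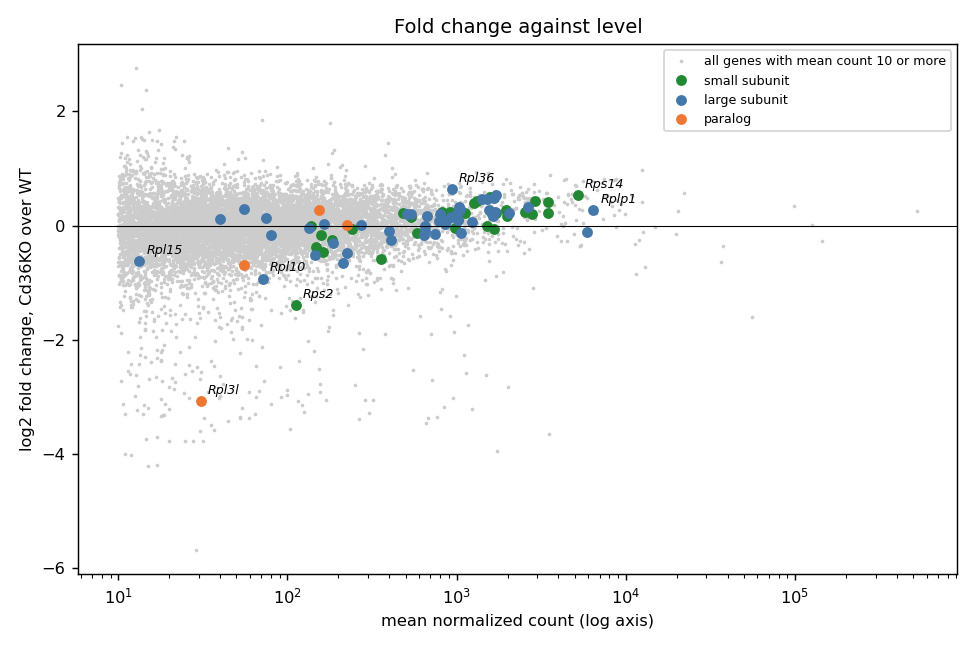
Log2 fold change of Cd36KO over WT (y axis) against the mean normalized count (x axis, log scale) for all genes with at least 10 normalized counts (grey) and for the small subunit, large subunit and paralog members (coloured). Members below 300 lie mostly under 0, with Rps2 at -1.39 and Rpl3l at -3.08, and members above 1000 lie mostly over 0.

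The ordering by level differed between single libraries. Relative to the WT mean, the unnumbered Cd36KO library had a median log2 difference of -0.76 over the 16 members with 100 to 300 normalized counts and 0.32 over the 29 with 1000 to 3000. In Cd36KO replicates 2, 3 and 4 the medians were 0.12, -0.05 and -0.24 for the first set and 0.27, 0.34 and 0.18 for the second. WT replicate 4 went the other way, with 0.52 for the first set and 0.21 for the second, and so did WT replicate 1, with -0.02 and -0.17. WT replicate 2 had -0.05 and -0.02, and WT replicate 3 had -0.38 and 0.03. The positive difference of the abundant members was therefore present in all 4 Cd36KO libraries, but also in WT replicate 4 and, at 0.03, in WT replicate 3, and the members with 100 to 300 were lowest in the unnumbered library.

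**Figure D4:**
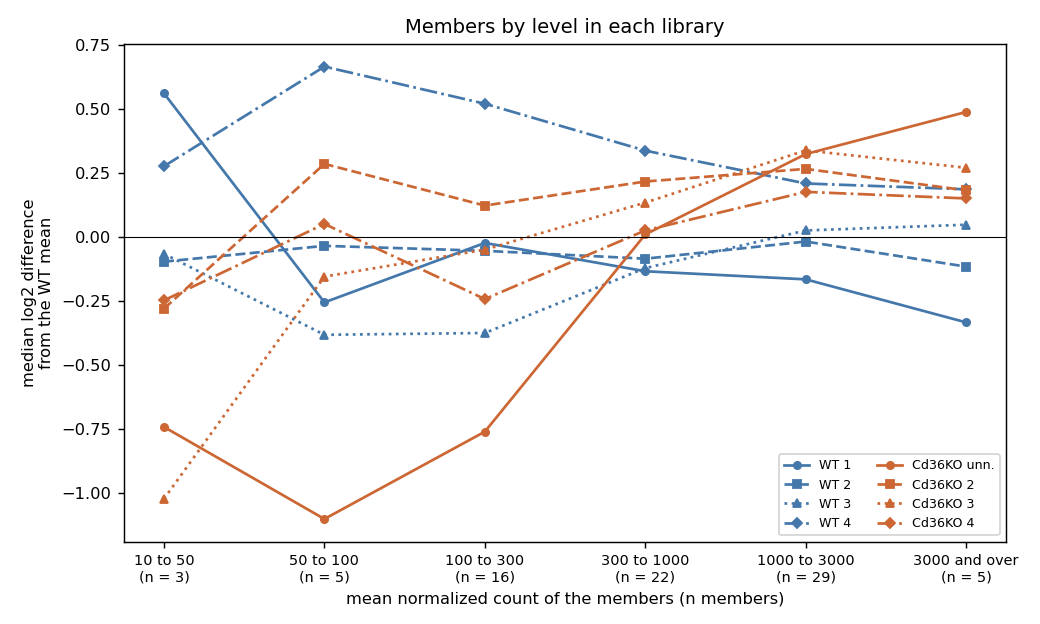
Median log2 difference from the WT mean (y axis) over the members of each step of mean normalized count (x axis, with the number of members) in the 4 WT (blue) and 4 Cd36KO (orange) libraries. The unnumbered Cd36KO library runs from -0.74 in the lowest step to 0.49 in the highest, and WT replicate 4 stays above 0 throughout.

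The level of the members themselves spanned a wide range. Per kb of a representative transcript, the mean normalized count was highest for Rplp2 (14021 per kb) and Rplp1 (12851), the acidic proteins of the stalk that recruits translation factors, followed by Rps14 (8710) and Rps29 (7133). The lowest members with counts were Rps6 (11.2 per kb), Rpl39l (15.6), Rpl15 (16.6), Rpl3l (22.4) and Rpl10a (48.4). Rplp1, Rplp2, Rps14, Rps20 and Rps26 held 27.0% of all member counts. The sources do not say which part of a transcript the reads cover, so levels per kb are approximate.

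Most ribosomal protein genes have processed pseudogenes, and reads that fit several copies cannot be placed. Of the 75-base windows of a member's representative transcript, a median of 48.1% occurred also in a transcript of another annotated gene, and 37 members shared more than 50% of them. In all, 706 other genes shared a window with a member, of which 683 are annotated as pseudogenes and 24 are rows of the count table. For Rps6, the substrate of the S6 kinases, 84.1% of windows were shared, with 11 pseudogenes. Its normalized counts were 14.4, 24.6, 7.06 and 4.95 in WT and 3.34 (unnumbered), 9.21, 10.2 and 4.58 in Cd36KO, too few for an adjusted p-value. For Rps2 71.1% of windows were shared, for Rpl10 91.9%, for Rpl36 70.9%, for Rpl13 79.6% and for Rpl7 41.0%, so counts of these 5 genes are uncertain. Rpl3l, Rpl39l and Rps3 shared none. The Spearman correlation between shared windows and fold change was 0.03 over the 80 members. The part of read placement in the low counts was not tested.

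Among the functional groups, the stalk had no member past the threshold. Rplp1 had 5576, 5816, 6009 and 5916 normalized counts in WT and 7875 (unnumbered), 6612, 7029 and 6469 in Cd36KO, with no overlap (log2 fold change 0.26 ± 0.12, SE; DESeq2 adjusted p = 0.236). Its partner Rplp2 had a log2 fold change of -0.12 ± 0.18 and Rplp0, which anchors both, of 0.15 ± 0.15 (0.27 without WT replicate 4), with overlapping groups. Of the 5S particle, which also restrains Mdm2 when ribosome assembly is disturbed, Rpl11 (0.23 ± 0.22) and Rpl5 (0.03 ± 0.27) had fold changes near their standard errors or below. Without WT replicate 4 that of Rpl11 was 0.49 (DESeq2 adjusted p = 0.0209) and that of Rpl5 0.33, and without WT replicate 1 that of Rpl11 was 0.086. In the messenger RNA channel, Rps3 (-0.13 ± 0.16), Rps26 (0.22 ± 0.20) and Rps28 (-0.04 ± 0.16) did not pass the test, beside the call of Rps2, and the difference between these genes was not tested. Over the fits without 1 library Rps26 ranged from 0.12 (without WT replicate 1) to 0.42 (without WT replicate 4), with no call. In the peptide exit tunnel, Rpl4 (0.08 ± 0.17), Rpl17 (0.01 ± 0.28) and Rpl39 (-0.48 ± 0.30) did not pass either, and Rpl39 had -0.25 without WT replicate 4 and -0.26 without the unnumbered library. The laminin receptor protein Rpsa had a fold change of 0.21 ± 0.17, the ubiquitin fusion Rps27a of -0.25 ± 0.33 (0.23 without WT replicate 4) and Rpl13a, a component of the GAIT complex, of 0.30 ± 0.26 (0.19 without WT replicate 1).

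Some paralogs replace a core protein in particular tissues. Rpl3l, the form of Rpl3 found in heart and skeletal muscle (chr17:24727820-24736143), varied most of all members. Its normalized counts were 135, 34.0, 2.35 and 49.5 in WT and 16.7 (unnumbered), 0, 1.02 and 8.39 in Cd36KO. The mean of 16 skeletal muscle markers (log2 CPM, that is, counts scaled to equal library size) was 9.54, 7.19, 3.45 and 7.20 in WT and 6.75, 1.84, 1.19 and 4.45 in Cd36KO. The libraries with the highest Rpl3l, WT replicates 1, 4 and 2, were those with the highest muscle score, and Cd36KO replicates 2 and 3 were lowest in both. The log2 fold change of Rpl3l was -3.08 ± 1.39 (SE; DESeq2 adjusted p = 0.239), and it was -0.38 with the muscle score as a covariate. Its core partner Rpl3 had 535, 699, 759 and 747 in WT and 503 (unnumbered), 786, 299.7 and 840 in Cd36KO, which overlapped and did not follow the muscle score.

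**Figure D5:**
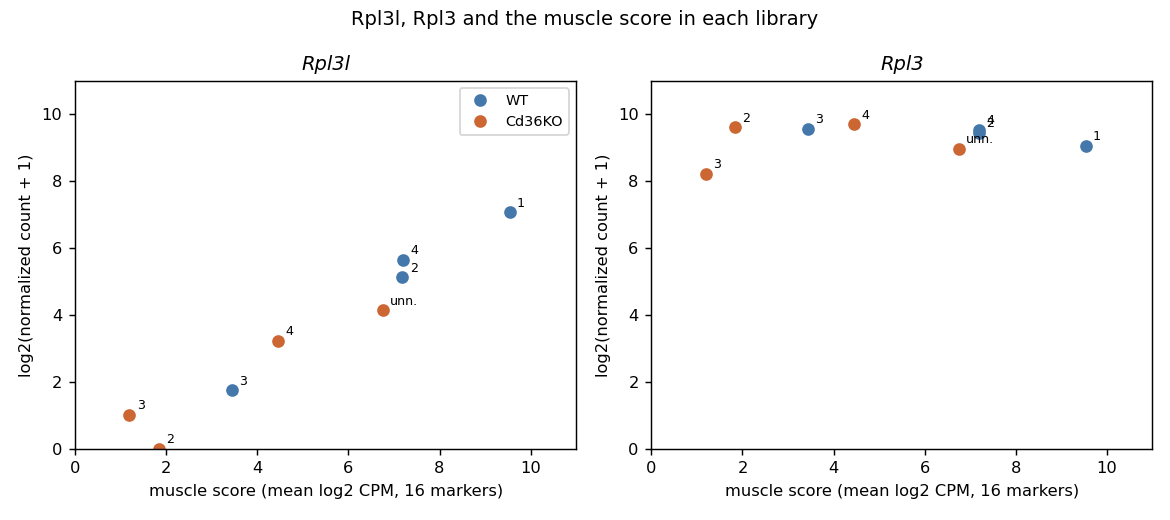
Log2(normalized count + 1) of Rpl3l (left) and Rpl3 (right) against the muscle score, the mean log2 CPM of 16 skeletal muscle markers, in the 4 WT (blue) and 4 Cd36KO (orange) libraries, labelled by replicate. Rpl3l is near 0 where the score is 1.84 or 1.19 and highest where it is 9.54, and Rpl3 is between 299.7 and 840 normalized counts throughout.

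The other paralogs did not pass the test. Rpl22l1 had 51.5, 45.0, 47.0 and 132 normalized counts in WT and 27.9 (unnumbered), 56.4, 37.8 and 47.3 in Cd36KO, so that its fold change of -0.70 rested on WT replicate 4 and was -0.17 without it. Rpl7l1 had a log2 fold change of 0.27 ± 0.20, Rps27l of 0.00 ± 0.20 and their core partners Rpl7 of 0.47 and Rps27 of 0.15 ± 0.20 (0.35 without WT replicate 4 and 0.038 without WT replicate 1). Rpl22 had 0.08 ± 0.14, and Rps4x, whose paralogs were not among the members, -0.06 ± 0.24. Rpl39l stayed between 1.81 and 13.4 normalized counts.

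Rps2 and Rpl3l are neighbours on chromosome 17, 5890 bases apart on the same strand, and both were lower in the Cd36KO mean. Their libraries were not ordered alike, since WT replicate 1 was the lowest WT library for Rps2 and the highest for Rpl3l.

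The start of each gene was examined for the pyrimidine run in RefSeq promoters (GRCm38.p6, 250 bases before to 50 after the start), which were used for 63 of the 83 members. Rpl36 and Rpl7 were among the 20 without an entry. The stretches below run from 50 bases before to 25 bases from the start, for the called members with an entry, the 3 members just short of the threshold and the paralog Rpl3l. Their letters differ, but the RefSeq start lay 1947 bases from the 5′ end of the gene in GENCODE for Rps2, 493 for Rpl35 and 221 for Rps19. For Rpl13 the distance was 0, for Rpl10 4 and for Rpl3l 6. Which starts are used in BAT was not tested. Capitals mark the longest run of C and T between 30 bases before and 25 bases from the start.
Rpl13: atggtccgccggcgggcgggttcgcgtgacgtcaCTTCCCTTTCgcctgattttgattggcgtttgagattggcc
Rps2: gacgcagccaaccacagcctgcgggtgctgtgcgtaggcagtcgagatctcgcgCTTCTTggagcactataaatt
Rps19: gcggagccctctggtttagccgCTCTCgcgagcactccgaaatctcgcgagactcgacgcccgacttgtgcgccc
Rpl10: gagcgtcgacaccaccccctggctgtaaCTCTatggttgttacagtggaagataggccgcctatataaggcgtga
Rpl35: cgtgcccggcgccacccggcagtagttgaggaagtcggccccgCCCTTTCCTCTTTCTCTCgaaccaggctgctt
Rpl3l: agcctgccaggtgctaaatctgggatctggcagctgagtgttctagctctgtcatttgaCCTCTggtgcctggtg

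These stretches lie at chr8:123102300-123102374 (Rpl13), chr17:24720013-24720087 (Rps2), chr7:24884542-24884616 (Rps19), chrX:74270766-74270840 (Rpl10) and chr17:24727776-24727850 (Rpl3l), all on the plus strand, and at chr2:39005107-39005181 on the minus strand (Rpl35). The run was 18 bases long in Rpl35, which was lower in Cd36KO, and 10 in Rpl13, which was higher. It was 6 bases in Rps2, 5 in Rps19 and Rpl3l and 4 in Rpl10. A run therefore occurred beside fold changes of both signs.

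A run of at least 8 pyrimidines within 30 bases of the start, on the strand of the gene, was present in 32 of the 63 member promoters (50.8%) and in 22.4% of 19600 promoters. The letters CTTTC in the same place were present in 31.7% of member promoters and 7.24% of all. On either strand and anywhere in the window, CCGGAAG, the core letters of ETS family sites, was in 39.7% against 11.2%, CTCGCGAG in 9.52% against 1.22%, GGGCGG in 60.3% against 43.5% and TATAAA in 9.52% against 13.2%. These motifs can share letters, since the pyrimidine run can contain CTTTC and the first letters of CTTCCGG, the other strand of CCGGAAG. Among the 60 members with a promoter and at least 10 normalized counts, the median log2 fold change was 0.17 for the 30 with a pyrimidine run and -0.01 for the 30 without. It was 0.19 for the 19 with CTTTC and -0.01 for the 41 without, 0.00 for the 23 with CCGGAAG and 0.08 for the 37 without, and 0.06 for the 37 with GGGCGG and 0.08 for the 23 without. It was 0.19 for the 5 with CTCGCGAG and 0.06 for the 55 without, and -0.26 for the 6 with TATAAA and 0.09 for the 54 without. A match is a description of the letters and not of a bound site, and the place of a run depends on the annotated start.

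Some proteins of the cytosolic ribosome have names outside the rule. Of these, the fusion gene Fau had a log2 fold change of -0.08 ± 0.16 (SE), the signalling scaffold Rack1 of 0.05 ± 0.15 and Rpl36al of 0.16 ± 0.17, none past the threshold.

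Few other genes of translation passed the test. For the counts at an unadjusted p under 0.05 below, the share over all genes was 15.6%. None of 38 initiation factors passed the test (median log2 fold change 0.03, 5 at an unadjusted p under 0.05), nor any of 8 elongation factors tested (median -0.09, 3 at an unadjusted p under 0.05), of which Eef2, the translocase, was the most abundant, at 0.32 ± 0.12. Among 19 other TOP messenger RNAs, whose median was -0.06, Nap1l1, a histone chaperone, was lower (-0.98 ± 0.22, SE; DESeq2 adjusted p = 0.00254). None of 57 ribosome biogenesis factors tested (median -0.06, 5 at an unadjusted p under 0.05) and none of 17 genes of RNA polymerase I and its factors (median 0.18, 5 at an unadjusted p under 0.05) passed, nor did Snhg12, the only TOP snoRNA host tested. The most abundant of the first list was Nop10 (0.16 ± 0.15) and of the second Polr2e (0.16 ± 0.14). Of 18 genes of the RNA polymerase I list with at least 10 normalized counts, 14 had a positive fold change, beside 49.0% of all genes. The summed normalized counts of that list did not overlap, at 1616 to 1860 in WT and 1878 to 2027 in Cd36KO. Among 19 tested genes that control TOP messenger RNAs, Larp4, a protein that protects poly(A) tails, was higher in every Cd36KO library (0.63 ± 0.16, SE; DESeq2 adjusted p = 0.00945) and was the only call. These counts come from DESeq2, and edgeR called 14 genes in all.

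The genes of the mitochondrial ribosome, which translates the messages of the mitochondrial genome, are given for comparison. Of 74 tested, 8 were higher, beside 1.42% of all genes, and none lower, beside 1.53%. Of the 75 with at least 10 normalized counts, 60 had a positive fold change, beside 49.0% of all genes, with a median of 0.31. The cytosolic set had 3 higher, 1 lower and a median of 0.12. The difference between the sets was not tested.

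Of the markers of cell types that a piece of BAT can hold, only the summed brown adipocyte markers separated all libraries of the groups among the marker lists whose sums are given here. Of 10 brown adipocyte markers, 4 were higher in Cd36KO (Ucp1, Cidea, Cox8b and Cox7a1) and none lower, and their summed normalized counts were 17808 to 23240 in WT and 31813 to 40525 in Cd36KO. Of the 6 white fat markers tested, 5 were lower (Lep, Hoxc8, Agt, Nnat and Aldh1a1), with sums of 676 to 4895 in WT and 561 to 996 in Cd36KO, and 3 of the 10 on the list were at 0 in every library. All 16 skeletal muscle markers had a negative fold change (median -2.97) and none passed, with sums of 769 to 58471 in WT and 207 to 8474 in Cd36KO. Of 10 macrophage markers tested Cd163 was lower (sums 663 to 1111 in WT and 697 to 994 in Cd36KO). Of B and T lymphocytes 2 of 14 markers reached the test and none passed, with sums of 36.5 to 61.4 in WT and 48.1 to 107 in Cd36KO. No endothelial (8 tested), stromal (7), adipocyte (7), erythroid (5) or proliferation marker (4) passed. All 5 erythroid markers had a positive fold change (median 0.51), and their sum was 16259 in the unnumbered Cd36KO library, 4615 to 8591 in WT and 4836 to 8770 in the other Cd36KO libraries. The unnumbered library was also the highest of all for Rpl36, Rpl7, Rpl13, Rps14 and Rps19. The part of these cell types in the ribosomal protein results was not tested, apart from the muscle score as a covariate, with which the median log2 fold change of the members was 0.07.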

How the data were processed

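BAT libraries of 4 WT and 4 Cd36KO mice were analysed, grouped by the genotype label. Libraries came from a digital mRNA-seq service (single-end reads of 75 cycles). According to its methods, the study used bbduk to trim reads, aligned them to mm10 with STAR and counted them with HTSeq-count; the submitters' processing notes name Trimmomatic, HISAT2 and DESeq2 with GRCm38. The annotation release, the strand setting and use of molecular identifiers are not given in the sources used here, so antisense and overlapping genes are less certain. The deposited table holds raw counts per gene. The authors also deposited log2 values, equal to log2(count / size factor + 1), with size factors as DESeq2 computes them, used for 1 alternative. P-values measure the spread between libraries. No 2 libraries agreed within sampling noise.

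Symbols and positions came from GENCODE M21 (GRCm38), with 30934 of 31053 identifiers matched, and promoters from RefSeq (GRCm38.p6). Shared windows were counted on the shortest complete principal transcript of each gene. Differential expression was tested over all genes with DESeq2 1.42.0 (Wald test, default independent filtering, Benjamini-Hochberg adjustment, threshold 0.05) in R 4.3.3. The model held genotype alone. Fold changes are unshrunken. Single genes were also compared with an exact permutation test over the 70 arrangements (SciPy 1.17.1). Alternatives were edgeR 4.0.16, limma 3.58.1, other scalings and filters, the muscle score as a covariate, the replicate number as a block and each library left out. The code was tested on simulated data.

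The members and the gene lists were chosen with earlier results of these data known. Genes were named if past the threshold, if among the 5 largest changes in each direction at a mean of at least 50 normalized counts, or if in a structural group, and from the other lists if past the threshold or the most abundant. Rps13, Rps25, Rpl38 and the lowest and highest members by level were named after their values were seen. Some members and list genes are not reported here by name. Figures were drawn with matplotlib 3.10.9.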

Additional observations from a re-analysis of the deposited data

Results flagged for a closer look

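In the groups of 4 libraries, 9 values of single genes lay far from the other 3, measured by the gap to the nearest library over the range of the group (Dixon's test at the 95% level). Of 80 groups tested, chance gives about 1 in 20. In WT, replicate 4 held all 4 of them, each the highest. Rpl22l1 had 132 normalized counts there against at most 51.5 in the other WT libraries, Rplp0 1094 against 822, Rps18 749 against 354 and Rps27a 370 against 152. In Cd36KO, the unnumbered library was highest for Rps14 (8490 against 5606) and Rps19 (2197 against 1741) and lowest for Rpl4 (676 against 833). Cd36KO replicate 4 was lowest for Rpsa (1332 against 1954) and for Rack1 (757 against 983).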

How the results depend on the processing

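Calls over the whole table ranged from 0 genes by limma to 498 without WT replicate 4, beside 284 by DESeq2 with all 8 libraries. The number of members past the threshold was the least stable result. It was 2 (1 higher, 1 lower) with at least 10 counts in 4 libraries, 1 (higher) with independent filtering off, 2 (0 higher, 2 lower) with the muscle score, 0 by edgeR and by limma, and 0 to 15 (0 to 14 higher, 0 to 1 lower) over the fits without 1 library. TMM factors and size factors without the members kept 4, and the library total as size factor and filtering tuned to 0.05, the latter chosen with the data already seen, gave 5. The median fold change stayed positive in all 17 fits, from 0.05 to 0.23 for all members, 0.10 to 0.25 for the small and 0.00 to 0.20 for the large subunit. The share of counts was higher in Cd36KO in all 9 variants. Outside the mitochondrial genome the difference was 0.44 to 0.68 percentage points over the sets without 1 library. As a share of all counts, with the mitochondrial genome included, it was 0.30.

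Replicate numbers 2, 3 and 4 are shared by numbered libraries of both groups, but deviations from the group means correlated at -0.06, 0.23 and 0.10 over 9793 genes, so the numbers were not taken to pair the libraries. With the replicate block in these 6 libraries 2 members passed (0 higher, 2 lower: Rps2 and Rpl3l), and 1 (0 higher, 1 lower) without it, a fit chosen with the data already seen.

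Changes of sign of named genes were all in genes that passed in neither fit. Rpl17 had -0.26 with the muscle score, -0.00085 by edgeR and -0.060 by limma. Rpl22 had -0.027 and Rpl4 -0.086 with the muscle score. Rpl39l had -0.11 with the muscle score, -0.47 with and -0.43 without the block in the 6 libraries. Rps27l had -0.015 with the library total, -0.0036 with the count filter, -0.0091 by edgeR, and -0.045 with and -0.061 without the block. Rps4x had 0.059 with and 0.034 without the block. Over the fits without 1 library the ranges were -0.15 to 0.24 for Rpl17, -0.37 to 0.055 for Rpl3, -0.18 to 0.47 for Rpl39l, -0.028 to 0.16 for Rpl4, -0.10 to 0.33 for Rpl5, -0.21 to 0.010 for Rplp2, -0.42 to 0.23 for Rps27a, -0.089 to 0.13 for Rps27l, -0.10 to 0.041 for Rps28, -0.19 to 0.12 for Rps4x, -0.19 to 0.021 for Fau and -0.0051 to 0.14 for Rack1. The cause of these changes was not tested.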
